A study of Saccharomyces cerevisiae with 29 samples.

Results

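Yeast cells carrying mre11-H125N, a point mutation in the nuclease site of Mre11, were compared with wild-type cells by RNA sequencing in G1. The samples were chosen by genotype and cell-cycle phase alone: 2 mre11-H125N libraries and 4 wild-type libraries, 6 of the 29 samples of the study. Libraries of mre11Δ (2) and rad50Δ (2), grown and arrested in the same way, served as a second reference. The estimate of the spread was shared by 17 RNA libraries in 8 groups: these 4 genotypes, ku70Δ (1), rrp6Δ (2) and xrn1Δ (2) in G1, and wild-type cells (2) released from G1 into S phase with 0.033% MMS, a DNA-alkylating agent, for 60 min. The other 12 samples, from chromatin immunoprecipitation and Micro-C, were not analysed here. All strains were MATa of a W303-type genotype. They share the auxotrophic alleles ade2-1, his3-11,15, trp1-1, ura3 and the leu2 allele with the mutations 3 and 112, the allele can1-100, and GAL and RAD5. The mutant strain added mre11::mre11-H125N, the mre11Δ strain mre11::HIS, and the rad50Δ strain rad50::KAN and URA3::GPD-TK7, while the wild-type label lists nothing further. Cells grew in YEP with 2% glucose and were held with 5 µg/ml α-factor, the mating pheromone of alpha cells, for 170 min at 25 °C. The labels do not say that libraries of 1 genotype came from separate cultures or clones, so the p-values measure the spread between these samples, which may be technical.

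Mre11, Rad50 and Xrs2 form the MRX complex, which binds DNA ends, tethers them and starts their resection. Mre11 carries the nuclease activity, Rad50 is the ATPase whose long coiled coils bridge DNA, and Xrs2 brings the complex into the nucleus and recruits the Tel1 kinase. The H125N change puts asparagine in place of a histidine of the active site and abolishes the nuclease activity while the protein and the complex still form, whereas a deletion of MRE11 or RAD50 removes the complex, so the point mutant separates the catalytic from the structural role. The MRE11 transcript (YMR224C, chromosome 13, 718575 to 720653 in build R64) had 679 and 658 normalized reads in mre11-H125N, 0 and 0 in mre11Δ, and 667, 713, 635 and 623 in wild type. The mutant libraries lay within the wild-type range (log2 change 0.02 ± 0.11 SE, limma adjusted p = 0.926), and read counts cannot show the base change itself. XRS2 had 697 and 663 normalized reads in mre11-H125N, against 528, 714, 551 and 629 in wild type. RAD50 had 1481 and 1301 in mre11-H125N, against 927, 914, 1150 and 1147 in wild type (log2 change 0.43 ± 0.34, limma adjusted p = 0.488).

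Depth over open reading frames was 32942688 and 30777111 reads in mre11-H125N, 7512010 and 9003630 in mre11Δ, 9755405 and 13768693 in rad50Δ, and 11222979 to 23108688 in wild type. Replicates of mre11-H125N and of wild type varied 41.9 to 162 times as much as counting error would give (chi-square per degree of freedom, 130 for the mutant pair). Wild-type replicate 1 stood apart in genes of the start of S phase: RNR1, the large subunit of ribonucleotide reductase, had 721 and 720.4 normalized reads in mre11-H125N, against 15604 in that library and 769 to 933 in the other 3. Some genes were far lower in mre11-H125N replicate 1 than in replicate 2, such as ADH1, alcohol dehydrogenase, at 43598 and 110088 in mre11-H125N, against 133928 to 179299 in wild type. Of the 23 coding genes called lower below, 21 were lower in replicate 1 than in replicate 2. The URA3 locus did not match the labels. The row on the strand opposite to URA3 (chromosome 5, 116711 to 117173) stood at 28.4 and 15.8 in mre11-H125N, 2.43 and 4.08 in mre11Δ, 6130 and 6385 in rad50Δ, and 2735 to 3204 in wild type, although a cassette at URA3 is labelled for rad50Δ and rrp6Δ and not for wild type. A second such row (115667 to 116257) had 8.56 and 4.27 in mre11-H125N, against 1429 to 1877 in wild type. The part of this marker difference in the other results was not tested.

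Relative to wild type, 58 of 5580 tested coding genes were higher in mre11-H125N (1.04%) and 23 were lower (0.412%), 1.45% in all. A fit of only the compared groups, with no spread taken from the other libraries, called 4. The test was limma's, with p-values adjusted by Benjamini-Hochberg over all 16559 rows and a threshold of 0.05. "Rose", "fell", "higher" and "lower" below refer to this test unless values alone are given. Without adjustment, 726 genes were higher and 791 lower at p under 0.05. Changes were small: 24 of the 81 genes moved by at least 1 on the log2 scale (16 higher and 8 lower), and the smallest called change was 0.47. Both mutant libraries lay beyond all 4 wild-type libraries for all 81 genes, a pattern that 17.2% of tested genes showed above wild type and 16.5% below it. The 95% interval reached a median of 0.34 to either side of the estimate, and for 4528 genes (81.1%) it lay within a log2 change of 1 in either direction.

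**Figure D1:**
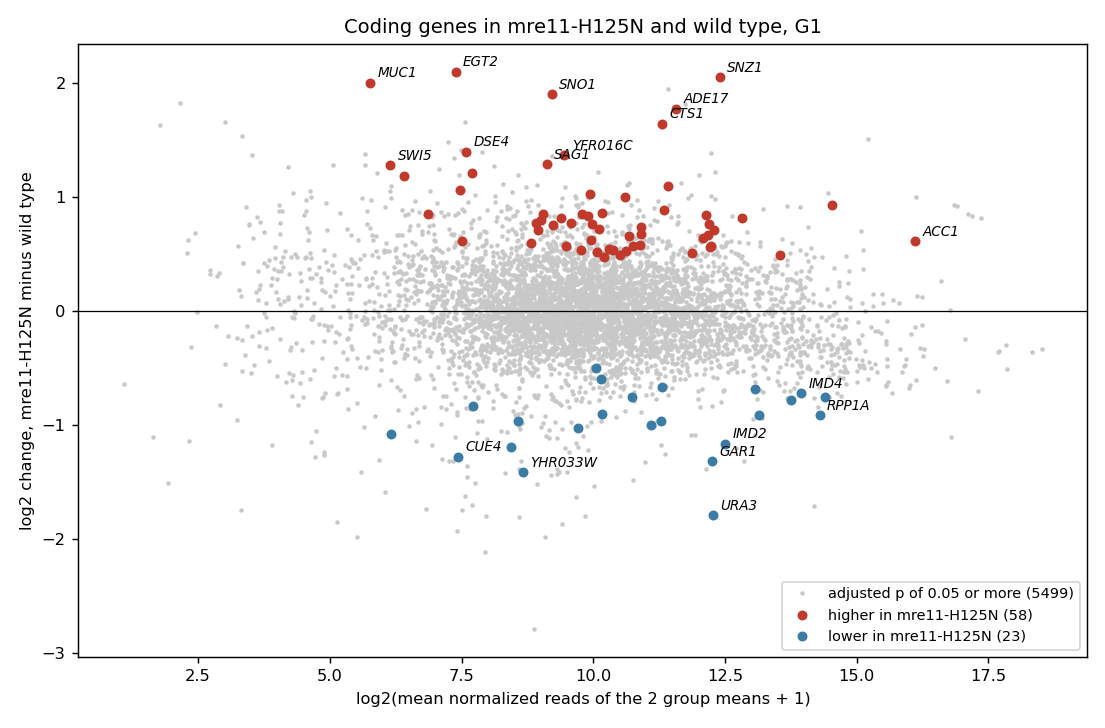
Log2 change of each tested coding gene (mre11-H125N minus wild type, vertical axis) against its mean level (horizontal axis, log2 of normalized reads plus 1). Red points are the 58 genes higher and blue points the 23 genes lower at an adjusted p under 0.05, and most genes lie close to 0.

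Among 19 genes of M/G1 and daughter cell separation, EGT2, DSE4 and CTS1 rose and none fell. Over all coding genes, 1.04% rose and 0.412% fell. Budding yeast transcribes such genes at the boundary of mitosis and G1 under transcription factors that include Swi5, and their products digest the wall between mother and daughter. EGT2 (YNL327W, chromosome 14, 24048 to 27173), a cell wall glycoprotein expressed early in G1, had 260.1 and 279 normalized reads in mre11-H125N, 1244 and 1182 in mre11Δ, 1390 and 1327 in rad50Δ, and 50.2, 76.7, 56.1 and 69.5 in wild type. The mutant libraries were thus above all wild-type libraries and below all deletion libraries. The change against wild type was 4.27-fold (log2 2.10 ± 0.16 SE, limma adjusted p = 2.54e-05). DSE4 (YNR067C, chromosome 14, 755746 to 759099), a glucanase of daughter cells, had 279 and 273 in mre11-H125N, 1208 and 1280 in mre11Δ, 1697 and 1718 in rad50Δ, and 86.4, 139.8, 104 and 94.1 in wild type (log2 1.39 ± 0.17 against wild type, adjusted p = 0.00103). It had the same order of genotypes with no overlap. CTS1 (YLR286C), the chitinase that splits the septum, had 3869 and 3691 in mre11-H125N, 3512 and 7703 in mre11Δ, 5630 and 8230 in rad50Δ, and 1000, 2178, 1081 and 907 in wild type (log2 1.64 ± 0.34, adjusted p = 0.0439). Here the mutant lay within the range of the mre11Δ libraries.

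The regulator SWI5 itself (YDR146C, chromosome 4, 748613 to 750742) had 113 and 84.1 normalized reads in mre11-H125N, 714 and 410.5 in mre11Δ, 477 and 465 in rad50Δ, and 25.1, 40.9, 55.3 and 43.0 in wild type (log2 1.28 ± 0.28, adjusted p = 0.0456). The mutant libraries were above all wild-type libraries and below all deletion libraries. Over the 19 genes of the M/G1 and daughter list, 7 had both mutant libraries above all wild-type libraries, against 17.2% of all coding genes. The list's median log2 change was 0.67, while the median over all coding genes was -0.00. The list's libraries had mean log2 deviations from wild type of 0.69 and 0.72 in mre11-H125N, 1.18 and 1.56 in mre11Δ, 1.54 and 1.84 in rad50Δ, and -0.39 to 0.26 in wild type. Genes of mitosis moved less: SWI5 was the only 1 of 26 G2/M genes called, and the mitotic cyclin CLB2 changed by 0.07. The G2/M median was 0.19. Of the 26, 8 had both mutant libraries above all wild-type libraries, against 17.2% of all coding genes, and 1 had both below. The G1/S list of 43 genes had no call, with mean deviations of -0.39 and -0.43 in mre11-H125N, 1.38 in wild-type replicate 1 and -0.40 to -0.54 in the other wild-type libraries. A different share of cells at M/G1 and a different level per cell cannot be told apart in bulk RNA.

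**Figure D2:**
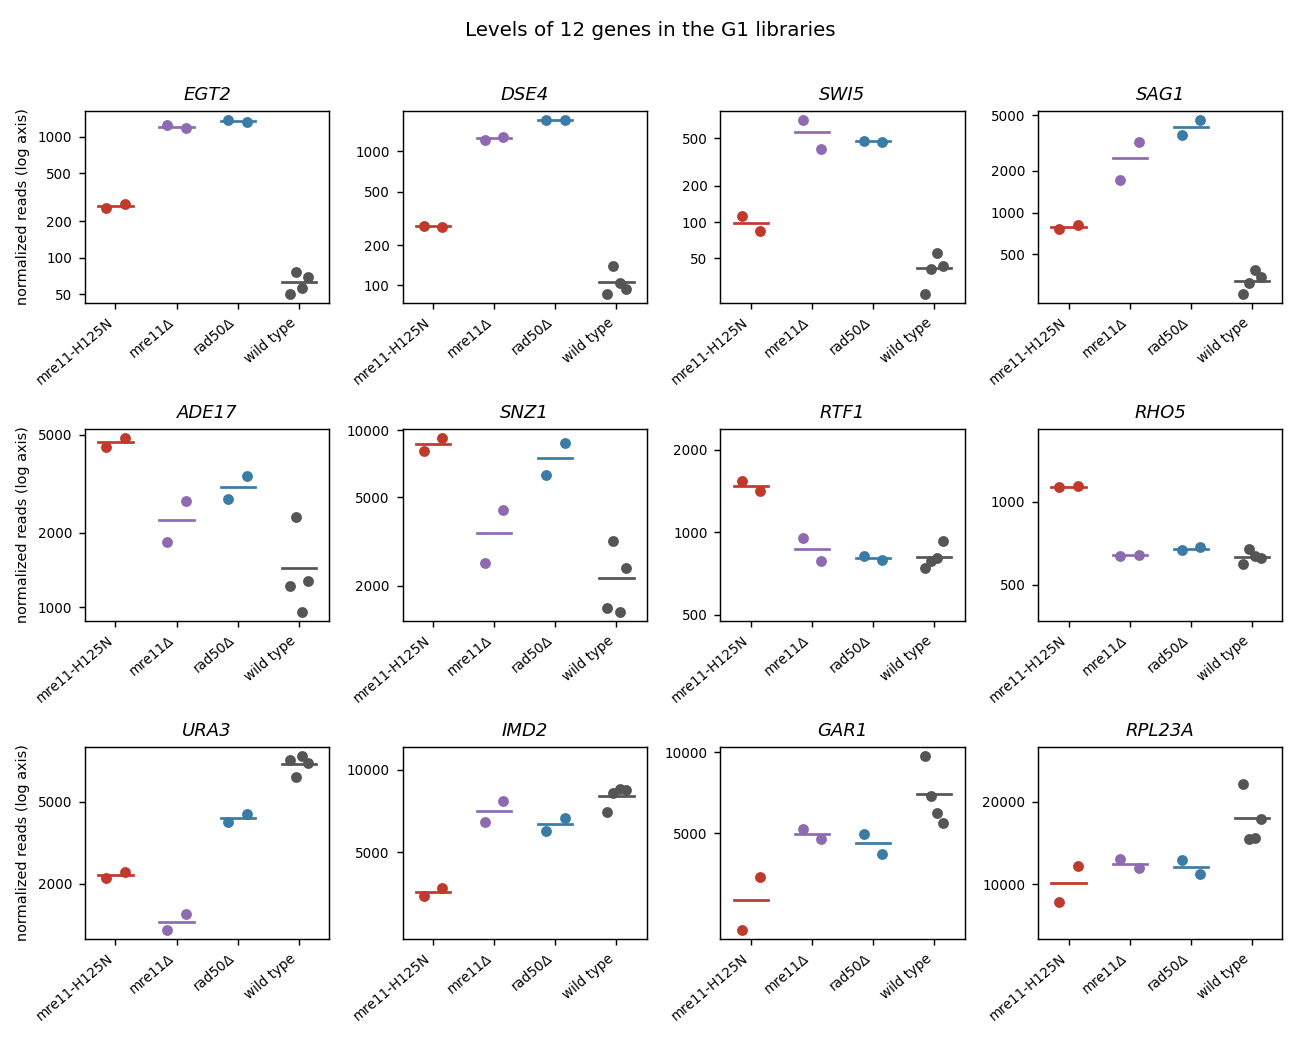
Normalized reads (log axes) of 12 genes in each G1 library, with a line at the group mean and groups from left to right mre11-H125N, mre11Δ, rad50Δ and wild type. EGT2, DSE4, SWI5 and SAG1 sit between wild type and the deletions, RTF1 and RHO5 stand above all 3 other genotypes, and IMD2 stands below them.

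SAG1 (YJR004C, chromosome 10, 442909 to 444861), the agglutinin of alpha cells, had 762 and 807 normalized reads in mre11-H125N, 1721 and 3231 in mre11Δ, 3610 and 4661 in rad50Δ, and 259 to 384 in wild type (log2 1.29 ± 0.21, adjusted p = 0.0124). It was the only 1 of 4 tested alpha-cell genes to pass. STE3, the a-factor receptor of alpha cells, had 28.9 and 34.7 in mre11-H125N, against 11.9 to 22.0 in wild type (adjusted p = 0.173), and none of 7 a-cell genes was called. The next 5 genes were set side by side after their values were seen and were not tested as a group. MUC1 (YIR019C), a flocculin of the cell surface, had 66.4 and 105 in mre11-H125N, against 13.0 to 29.0 in wild type (log2 2.00 ± 0.43, adjusted p = 0.0437). FLO10, another flocculin, had 217 and 259.6 in mre11-H125N, against 85.0 to 139.8 in wild type (log2 1.06 ± 0.18, adjusted p = 0.0157), and CDA1, a chitin deacetylase, 111 and 123, against 44.6 to 58.0 (log2 1.18 ± 0.21, adjusted p = 0.0157). MNN4, a regulator of mannan phosphorylation, rose by 0.85 ± 0.15 and HBT1, a protein of the mating projection, by 1.02 ± 0.21. Against the deletions these genes differed. MNN4 was above mre11Δ and rad50Δ (log2 0.83 and 0.70), HBT1 was below them (log2 -1.43 and -1.47), and FLO10 and CDA1 overlapped mre11Δ. The 34 genes of the pheromone response had no call in either direction and a median log2 change of 0.39, with FUS1, a membrane protein of cell fusion, at 8737 and 9354 in mre11-H125N, against 2040, 8222, 6900 and 8383 in wild type. FUS1, a marker of the response to α-factor, was thus lowest in wild-type replicate 1 among these 6 libraries.

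Among 22 purine and one-carbon genes, 3 were higher and 2 were lower, against 1.04% and 0.412% of all coding genes. ADE17 (YMR120C, chromosome 13, 507502 to 509280), the enzyme of the last steps of purine synthesis, had 4468 and 4872 normalized reads in mre11-H125N, 1830 and 2700 in mre11Δ, 2746 and 3399 in rad50Δ, and 1221, 2316, 955 and 1281 in wild type. All mutant libraries were above the others, with a 3.24-fold change against wild type (log2 1.77 ± 0.30, adjusted p = 0.0159). With ADE17, SHM2 (cytosolic serine hydroxymethyltransferase, log2 0.81 ± 0.15, adjusted p = 0.022) and MTD1 (a methylenetetrahydrofolate dehydrogenase, log2 0.72 ± 0.11, adjusted p = 0.00564) rose, while IMD2 and IMD4 fell. IMD2 to IMD4 encode IMP dehydrogenase, which leads from the purine precursor to guanine nucleotides. IMD2 (YHR216W, chromosome 8, 554396 to 555967) had 3447 and 3692 in mre11-H125N, 6443 and 7666 in mre11Δ, 5997 and 6642 in rad50Δ, and 6983, 8231, 8465 and 8402 in wild type. Both mutant libraries were below all 8 others (log2 -1.16 ± 0.12 against wild type, adjusted p = 0.000446). IMD4 had 11696 and 11982 in mre11-H125N, against 17028 to 24280 in wild type (log2 -0.72 ± 0.15, adjusted p = 0.0379), and IMD3 had 10202 and 9968, against 12614 to 14005 (log2 -0.40 ± 0.11, adjusted p = 0.0739). The IMD genes are close paralogs, and IMD1 (YAR073W), annotated as a dubious open reading frame, had 30.5 and 44.5 in mre11-H125N, against 102 to 111 in wild type, so reads may be divided among them. The median change of the list was 0.26, and the strains carry the ade2-1 allele in all groups.

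SNZ1 and SNO1, a divergent gene pair for vitamin B6 synthesis, both rose. SNZ1 (YMR096W, chromosome 13, 458408 to 459301) had 8017 and 9235 normalized reads in mre11-H125N, 2530 and 4384 in mre11Δ, 6294 and 8711 in rad50Δ, and 1586, 3187, 1524 and 2414 in wild type (log2 2.05 ± 0.35, adjusted p = 0.017). SNO1 (YMR095C, chromosome 13, 457285 to 457959) had 906 and 949 in mre11-H125N, 224 and 355 in mre11Δ, 968 and 1178 in rad50Δ, and 158 to 336 in wild type (log2 1.90 ± 0.33, adjusted p = 0.0174). For both genes the mutant was above mre11Δ and wild type, and it overlapped rad50Δ for SNZ1 and lay just below it for SNO1. They were the 2 of 24 thiamine and vitamin B6 genes called higher (none was lower), and the close relatives SNZ2 and SNO2 changed by -0.14 and -0.17. Both also stand in a list of 47 genes under Gcn4, the activator of amino acid synthesis. In that list 3 were higher and none lower, with a median of 0.01. The shares over all coding genes were 1.04% higher and 0.412% lower. GCN4 itself changed by 0.25.

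URA3 (YEL021W, chromosome 5, 116167 to 116970), the decarboxylase that completes UMP synthesis, showed the largest fall among called coding genes. It had 2130 and 2295 normalized reads in mre11-H125N, 1193 and 1425 in mre11Δ, 4014 and 4365 in rad50Δ, and 8010, 6592, 8368 and 7732 in wild type (log2 -1.79 ± 0.14, adjusted p = 2.54e-05). The 4 genotypes did not overlap, and the order of their levels was mre11Δ, mre11-H125N, rad50Δ and wild type. This is the locus whose opposite-strand signal differed between the strains as given above. URA1, the dihydroorotate dehydrogenase of the same pathway, rose to 6147 and 5213 in mre11-H125N, against 3253 to 4290 in wild type (log2 0.66 ± 0.13, adjusted p = 0.0372). Other auxotrophic markers passed no test against wild type: HIS3 had 170.2 and 388 in mre11-H125N, against 316 to 397 in wild type, and LEU2 1935 and 2561, against 2471 to 3101.

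Ribosomal protein genes had slightly lower values in the mutant, few of which passed the test. Of 138 tested, 3 were called lower (RPP1A, RPL23A and RPL14B) and none higher, against 0.412% and 1.04% of all coding genes. For 100 of the 138, both mutant libraries lay below all wild-type libraries, against 16.5% of all coding genes. The median log2 change was -0.41. The mean deviation of the list was -0.48 and -0.37 in mre11-H125N, -0.43 and -0.54 in mre11Δ, -0.42 and -0.55 in rad50Δ, and 0.31, -0.17, -0.08 and -0.06 in wild type, so mutant replicate 1 lay within the range of the deletions and replicate 2 between the deletions and all wild-type libraries. RPL23A, a protein of the large subunit, had 8617 and 11647 in mre11-H125N, 12341 and 11485 in mre11Δ, 12241 and 10955 in rad50Δ, and 14600 to 23293 in wild type (log2 -0.78 ± 0.17, adjusted p = 0.0471). RPP1A, of the ribosomal stalk, had 12194 and 15443 in mre11-H125N, against 21075 to 37255 in wild type (log2 -0.92 ± 0.19, adjusted p = 0.0379). Many members have a near-identical copy with which they can share reads. The 88 ribosome assembly genes had a median of -0.24 and 1 call, DBP2, an RNA helicase, at 6140 and 6325 in mre11-H125N, against 10199 to 16456 in wild type (log2 -0.91 ± 0.17, adjusted p = 0.0248). Of the 88, 31 had both mutant libraries below all wild-type libraries and 2 had both above, against 16.5% and 17.2% of all coding genes. GAR1 (YHR089C), a core protein of the H/ACA particles that guide pseudouridylation, had 2181 and 3452 in mre11-H125N, 5206 and 4768 in mre11Δ, 4987 and 4192 in rad50Δ, and 5477 to 9705 in wild type (log2 -1.32 ± 0.24, adjusted p = 0.0192). Every mutant library was below every other library for this gene, with the lowest value in mre11-H125N replicate 1.

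Among the remaining lower genes, LOT5 had 153 and 279 normalized reads in mre11-H125N, 529.8 and 464 in mre11Δ, 464 and 486 in rad50Δ, and 404 to 503 in wild type (log2 -1.19 ± 0.20, adjusted p = 0.0153). SCC4, which loads cohesin, had 206 and 307 in mre11-H125N, against 385 to 663 in wild type (log2 -0.97 ± 0.21, adjusted p = 0.0463), and was the only 1 of 22 cohesin and condensin genes called. HEM12, an enzyme of heme synthesis, fell by 0.76 ± 0.13 on the log2 scale and YHB1, a flavohemoglobin that removes nitric oxide, by 0.75 ± 0.14. YHR033W had 132 and 338 in mre11-H125N, 1174 and 1454 in mre11Δ, 1653 and 1710 in rad50Δ, and 434 to 759 in wild type, so here the mutant was below wild type while both deletions were above it.

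A further set of genes stood above wild type and above both deletions. RHO5 (YNL180C, chromosome 14, 299654 to 300649), a small GTPase, had 1130 and 1140 normalized reads in mre11-H125N, 637 and 639 in mre11Δ, 667 and 683 in rad50Δ, and 596, 675, 633 and 623 in wild type. The wild-type libraries overlapped those of each deletion, and the mutant lay above all 8 libraries. Its log2 change was 0.85 ± 0.10 against wild type (adjusted p = 0.000989), 0.83 against mre11Δ (adjusted p = 0.00104) and 0.75 against rad50Δ (adjusted p = 0.0015). RTF1 (YGL244W, chromosome 7, 41498 to 43174), a subunit of the Paf1 complex that accompanies RNA polymerase II, had 1534 and 1416 in mre11-H125N, 958 and 786 in mre11Δ, 820.1 and 796 in rad50Δ, and 738 to 927 in wild type (log2 0.86 ± 0.11, adjusted p = 0.00208). DEF1, which promotes the degradation of stalled RNA polymerase II, had 5681 and 5907 in mre11-H125N, 4005 and 3143 in mre11Δ, 3074 and 2729 in rad50Δ, and 2936 to 3383 in wild type (log2 0.84 ± 0.12, adjusted p = 0.00466). YFR016C, an open reading frame of chromosome 6 (177042 to 180743) with no gene name in the files, had 1043 and 973 in mre11-H125N, 785 and 600.4 in mre11Δ, 575 and 574 in rad50Δ, and 353 to 454 in wild type (log2 1.37 ± 0.16, adjusted p = 0.001). YFR016C stood above both deletions by values but was not called above both. Its deletion libraries also lay above all wild-type libraries. ESC1, which anchors silent chromatin at the nuclear periphery, had 2100 and 1991 in mre11-H125N, 1198 and 1235 in mre11Δ, 1108 and 1169 in rad50Δ, and 749.6, 875, 1186 and 1397 in wild type (log2 1.00 ± 0.19, adjusted p = 0.0243), and was the only 1 of 18 telomere and silencing genes called. For POM33, a membrane protein of the nuclear pore, the mutant overlapped the deletions instead. It was the only 1 of 33 pore genes called (log2 0.80 ± 0.16, adjusted p = 0.0303), and it stood at 595 and 713 in mre11-H125N, 639 and 635 in mre11Δ, 636 and 633 in rad50Δ, and 309 to 442 in wild type.

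Gene length moved with the result. The 58 higher genes had a median open reading frame of 2245.5 bp and the 23 lower genes one of 918 bp, against 1245 bp over all tested genes. Split into 10 equal bins by length, the median log2 change was -0.10 in the shortest bin (median 342 bp) and 0.18 in the longest (median 3537 bp), and the longest bin held 24 of the 58 higher genes and no lower gene. Across the 5580 genes, which are not independent replicates, Spearman's correlation of length with the log2 change was 0.25. In the longest bin the median deviation from wild type was 0.23 and 0.14 in mre11-H125N, 0.16 and 0.10 in mre11Δ, 0.11 and 0.06 in rad50Δ, and -0.06 to 0.03 in wild type. With a smooth trend on length removed from each library, an alternative chosen after seeing the data, 29 coding genes were higher and 12 lower, 38 of them among the 81. EGT2, DSE4, SAG1, ADE17, SNZ1, RHO5, RTF1, URA3, IMD2 and GAR1 were still called, and CTS1, SWI5, MUC1, ESC1, RPP1A, RPL23A, SCC4, HBT1 and YHR033W were not. The log2 changes of these 9 genes with the trend removed were 1.62 for CTS1, 1.2 for SWI5, 1.81 for MUC1, 0.79 for ESC1, -0.85 for RPP1A, -0.70 for RPL23A, -1.02 for SCC4, 0.87 for HBT1 and -1.39 for YHR033W. Their limma adjusted p-values ran between 0.0502 (SCC4) and 0.0711 (ESC1), just past the threshold. The part of RNA integrity or fragment selection in this trend was not tested.

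**Figure D3:**
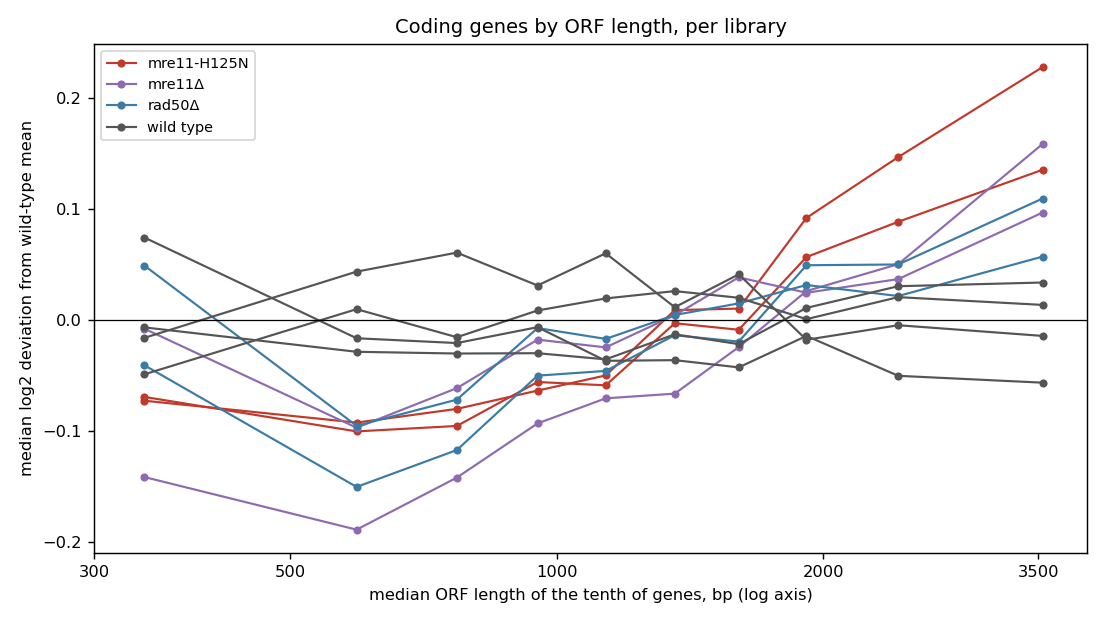
Median log2 deviation from the wild-type mean (vertical axis) for 10 groups of coding genes ordered by open reading frame length (horizontal axis, bp, log axis), 1 line per library. Both mre11-H125N lines lie below 0 in the 5 groups of shorter genes and end at 0.23 and 0.14 in the longest group.

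Lists of other pathways gave few or no calls. Among 35 stress-induced genes 1 was higher, GDB1, the glycogen debranching enzyme, at 3237 and 3441 normalized reads in mre11-H125N, 4647 and 6343 in mre11Δ, 5391 and 6390 in rad50Δ, and 1335 to 2293 in wild type (log2 0.88 ± 0.19, adjusted p = 0.0437). The list's median was 0.60. Of its 35 members, 14 had both mutant libraries above all wild-type libraries, against 17.2% of all coding genes. Its mean deviation was 0.43 and 0.80 in mre11-H125N, 1.65 and 2.07 in mre11Δ, 2.01 and 2.29 in rad50Δ, and -0.78, 0.20, 0.54 and 0.04 in wild type. Wild-type replicate 3 thus overlapped the mutant, which in turn lay below the 4 deletion libraries. The 18 mitochondrially encoded rows had a median of 0.51 with no call. In 11 of them both mutant libraries lay above all wild-type libraries and in none below, against 17.2% and 16.5% of all coding genes. COX1, a subunit of cytochrome c oxidase, had 232228 and 192567 in mre11-H125N, against 102501 to 166724 in wild type (log2 0.81 ± 0.22, adjusted p = 0.0662), and the rows of its introns share its reads. Of 26 DNA damage response genes none was called. RNR3, the ribonucleotide reductase subunit induced by DNA damage, had 242 and 226 in mre11-H125N, 943 and 619 in mre11Δ, 687 and 752 in rad50Δ, and 189 to 235 in wild type (log2 0.15 ± 0.17, adjusted p = 0.626). HUG1, another target of the damage checkpoint, had 15.5 and 15.8 in mre11-H125N, 68.0 and 71.5 in mre11Δ, 79.2 and 80.1 in rad50Δ, and 17.4 to 25.1 in wild type. DDR48 had 7302 and 6728 in mre11-H125N, 2146 and 3431 in mre11Δ, 1987 and 2961 in rad50Δ, and 1607 to 3874 in wild type (log2 1.22 ± 0.32, adjusted p = 0.0654). None of 14 MRX and end-joining genes and none of 21 homologous recombination genes was called, with medians of 0.19 and -0.07. Within 20 kb of a chromosome end, 1 of 140 genes was higher (FLO10) and 1 lower (IMD2), with a median of 0.05. The 29 iron genes, 26 ergosterol genes, 19 genes of glycolysis and fermentation, 31 cell wall integrity genes and 32 proteasome genes had no call, with medians of -0.33, -0.26, -0.33, 0.28 and 0.10.

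**Figure D4:**
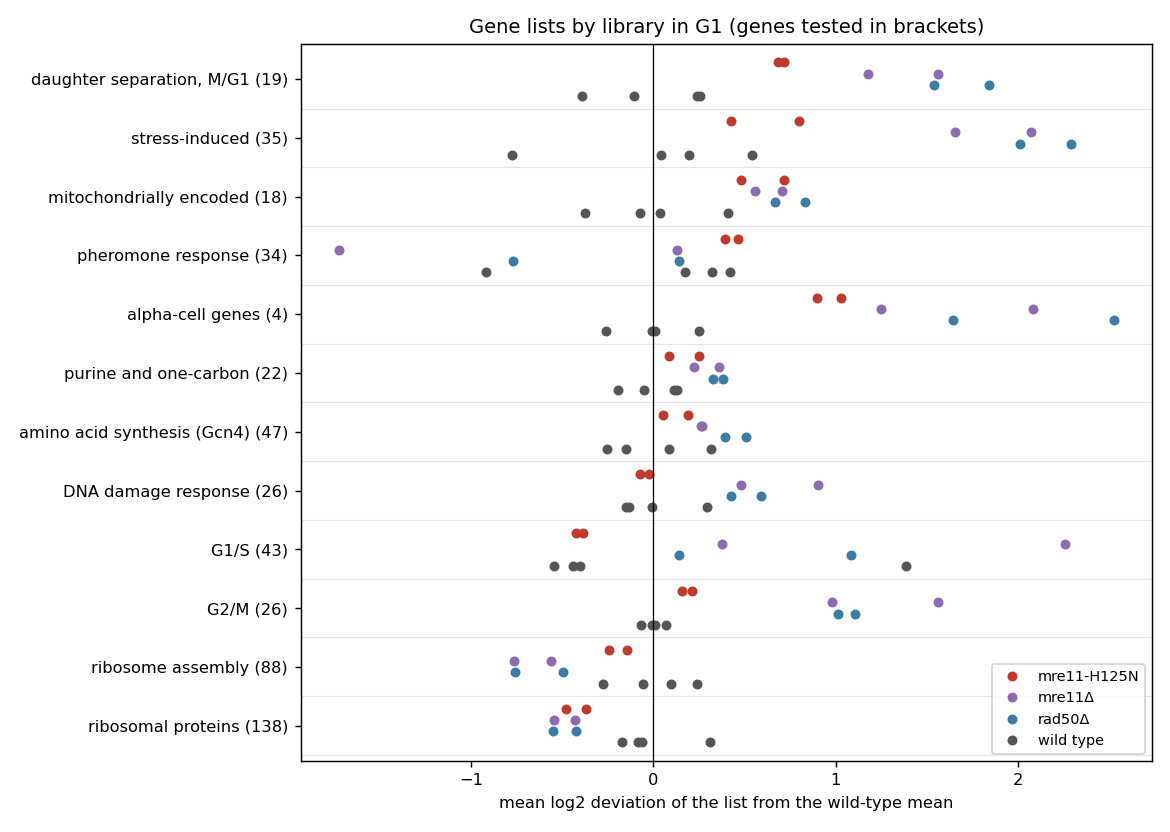
Mean log2 deviation from the wild-type mean (horizontal axis) of 12 gene lists, 1 point per library, with groups running down from mre11-H125N to wild type within each list. The mre11-H125N points of the daughter separation list (0.69 and 0.72) lie between wild type and the deletions, and those of the ribosomal proteins (-0.48 and -0.37) lie close to those of the deletions.

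Among rows not classed as coding, those annotated as Xrn1-sensitive unstable transcripts (XUT rows) held most of the calls. Of 1424 tested, 29 were higher in mre11-H125N (2.04%) and 3 were lower (0.211%). Among the 29, 22 lay over a RefSeq coding gene of at least 3000 bp that has no open reading frame row in the table, a grouping made after the values were seen and therefore given without a test. Of the 44 tested XUT rows of that kind, on 15 chromosomes, 37 had both mutant libraries above all wild-type libraries and none had both below. Of the other 1380 XUT rows, 182 had both mutant libraries above all wild-type libraries and 101 had both below. The median log2 change of the 44 rows was 0.95, from -0.10 to 2.06, against 0.08 for the other 1380. In 38 of the 44, at least 2 such RefSeq genes overlap the row, such as 1 of 5269 bp and 1 of 1323 bp. The annotation used here gives these genes no role. Each row lies on the same strand as its RefSeq gene. Transcripts of that gene and a separate noncoding RNA therefore cannot be told apart here. XUT1082 (chromosome 4, 878508 to 883665), over YDR210C-D, had 3490 and 3117 normalized reads in mre11-H125N, 1077 and 899 in mre11Δ, 833 and 717 in rad50Δ, and 713, 890.1, 668 and 912 in wild type. It was 4.15-fold higher than in wild type (log2 2.06 ± 0.14, adjusted p = 8.78e-06) with no overlap. XUT1331 (chromosome 8, 543814 to 549392) had 4454 and 4071 in mre11-H125N, 3692 and 2698 in mre11Δ, 2263 and 2202 in rad50Δ, and 1673 to 2084 in wild type (log2 1.23 ± 0.13, adjusted p = 0.000528). In 31 of the 44 rows the mutant was also higher than rad50Δ, a call made for 4% of all XUT rows, and in 21 it was higher than mre11Δ, for 5.76% of all XUT rows. These rows may share reads with copies elsewhere in the genome, which was not tested.

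**Figure D5:**
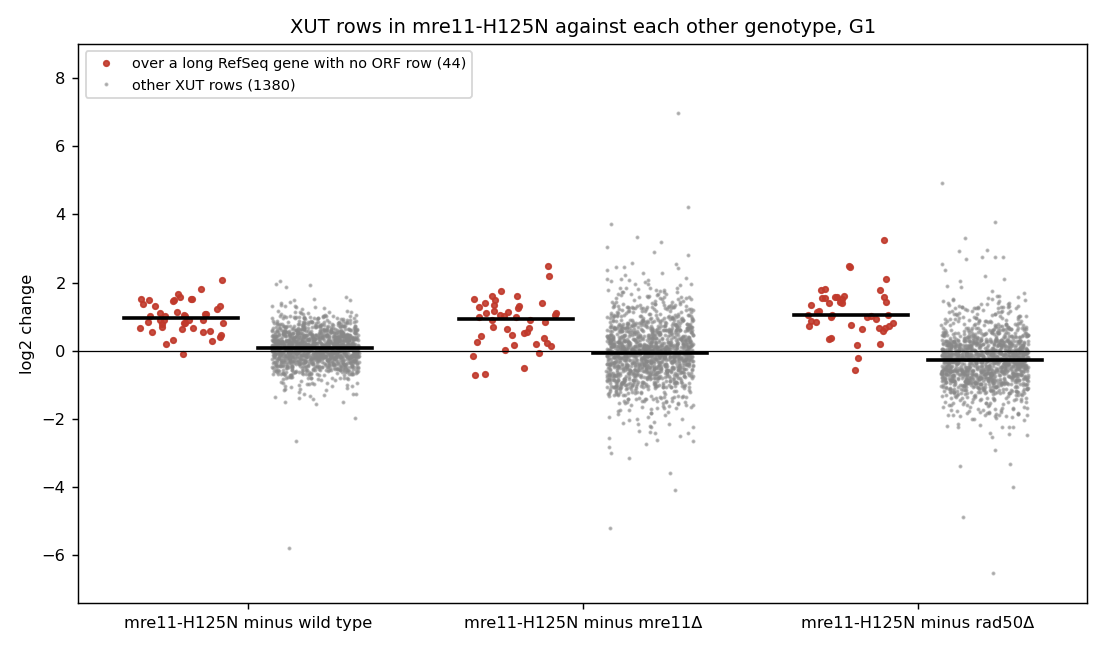
Log2 change of XUT rows in mre11-H125N against wild type, mre11Δ and rad50Δ, with black bars at the medians. The 44 rows over a long RefSeq gene with no open reading frame row (red) have medians of 0.95, 0.94 and 1.06, and the other 1380 rows (grey) 0.08, -0.06 and -0.27.

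The 3 lower XUT rows included XUT0391 (chromosome 7, 884006 to 884209), 196 bp from TDH3, the gene whose promoter is known as GPD. It had 2.14 and 4.88 normalized reads in mre11-H125N, 0 and 6.13 in mre11Δ, 363 and 435 in rad50Δ, and 191 to 275 in wild type. As for both opposite-strand rows at URA3, the mre11-H125N and mre11Δ libraries lay below and the rad50Δ libraries above all wild-type libraries. Of 1946 rows divergent from promoters, 2 were higher (0.103%) and 6 lower (0.308%), and both rows opposite to URA3 were among the lower ones. A row divergent from SNO1 (chromosome 13, 457869 to 458397) was higher, at 865 and 987 in mre11-H125N, against 194 to 365 in wild type. It lies between SNO1 and SNZ1 and overlaps the start of SNO1 on the other strand. Of 734 stable unannotated transcripts 3 were higher (0.409%) and 5 lower (0.681%). No cryptic unstable transcript of 760 was called (46 at unadjusted p under 0.05), nor any of 85 transfer RNA rows (7 at unadjusted p under 0.05) by limma. Of 77 small nucleolar RNAs, 1 was lower (1.3%): SNR59, which lies inside RPL7B on the same strand, at 1735 and 1749 in mre11-H125N, 1832 and 1532 in mre11Δ, 1583 and 1612 in rad50Δ, and 2372 to 2969 in wild type (log2 -0.60 ± 0.11, adjusted p = 0.0212). RPR1, the RNA of RNase P, had 17066 and 34177 in mre11-H125N, against 46842 to 83413 in wild type (log2 -1.35 ± 0.28, adjusted p = 0.0406), and lies near URA3 on chromosome 5 (117667 to 118035). Among 341 dubious frames 4 were higher (1.17%) and 3 lower (0.88%).

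Set against the deletions, the point mutant gave more calls than against all 4 wild-type libraries. This order depended on the wild-type libraries used. With 2 libraries a side, 962 coding genes were called against wild-type replicates 1 and 2 and 123 against replicates 3 and 4. Against mre11Δ, 433 coding genes were higher in mre11-H125N (7.76%) and 481 lower (8.62%). Against rad50Δ, 383 were higher (6.86%) and 425 lower (7.62%). These comparisons share the mutant libraries, and each has 2 libraries a side. Without mre11-H125N replicate 1 the counts of called genes fell to 162 against mre11Δ and 149 against rad50Δ. With scaling factors computed over all tested rows by TMM the split against rad50Δ was 510 higher and 356 lower. Of 35 stress-induced genes, 15 were lower in mre11-H125N than in mre11Δ and 18 lower than in rad50Δ, none was higher, and the medians were -1.09 and -1.25. HSP26, a small heat shock protein, had 257 and 303 normalized reads in mre11-H125N, 1968 and 2359 in mre11Δ, 4760 and 5153 in rad50Δ, and 189 to 283 in wild type (limma adjusted p = 4.89e-06 against mre11Δ and 4.07e-08 against rad50Δ). DDR2, a stress protein, had 13.9 and 40.2 in mre11-H125N, 569 and 533 in mre11Δ, 719 and 685 in rad50Δ, and 13.9 to 57.7 in wild type. For both genes the mutant overlapped wild type and was far below the deletions. Of 26 G2/M genes 16 were lower than in mre11Δ and 11 lower than in rad50Δ, with SWI5 at log2 -2.46 and -2.26. Cell-cycle position differed between these libraries: the G1/S list stood at -0.39 and -0.43 in mre11-H125N, 2.26 and 0.38 in mre11Δ, and 1.09 and 0.14 in rad50Δ, and its part in these calls was not tested. In the daughter separation list 5 of 19 were lower than in mre11Δ and 6 lower than in rad50Δ.

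Ribosome assembly genes went the other way. Of 88 tested, 23 were higher in mre11-H125N than in mre11Δ and 1 was lower. Against rad50Δ, 19 were higher and none lower, and the medians were 0.31 and 0.28. Over all coding genes, 7.76% were higher and 8.62% lower than in mre11Δ, and 6.86% higher and 7.62% lower than in rad50Δ. CGR1, a nucleolar protein of large-subunit assembly, had 935 and 799.7 normalized reads in mre11-H125N, 129 and 149 in mre11Δ, 234 and 167 in rad50Δ, and 492, 264, 1130 and 1192 in wild type (limma adjusted p = 0.0153 against mre11Δ and 0.0379 against rad50Δ). RRP14 had 1191 and 1018 in mre11-H125N, 323 and 268 in mre11Δ, 328 and 239 in rad50Δ, and 584, 363, 791 and 1047 in wild type. In both genes wild-type replicates 1 and 2 lay between the deletions and the mutant, while replicates 3 and 4 lay above the mutant for CGR1 and below or within its range for RRP14. Ribosomal protein genes, in contrast, had medians of 0.04 and 0.06 against the deletions, with 4 of 138 higher in each comparison and 1 lower than in rad50Δ.

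Few calls against wild type held under every analysis. EGT2, IMD2, URA3 and YFR016C were called in all 21 alternatives, the other 77 lost the call in at least 1, and none changed direction. Without mre11-H125N replicate 1, 6 coding genes remained called (these 4, DSE4 and RHO5), and without replicate 2 there were 39 higher and 245 lower. CTS1, SWI5, MUC1, SCC4 and YHR033W also lost the call without wild-type replicate 1, at limma adjusted p-values of 0.0702, 0.0502, 0.0655, 0.0587 and 0.0760. Counts also moved with wild type: 123 genes were called against replicates 3 and 4 alone and 962 against replicates 1 and 2 alone. On whole reads, edgeR's quasi-likelihood test called 90 coding genes, 75 of them among the 81, and DESeq2 called 684, including all 81. None of these alternatives addresses the difference in opposite-strand signal between the strains at the URA3 locus.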

How the data were processed

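Total RNA was taken by hot phenol, depleted of ribosomal RNA and sequenced as strand-specific libraries, per the labels. Per the submitters' processing notes, the authors used STAR 2.5.3, SAMtools 0.1.19, DESeq2 (version not given in the sources used here) and build R64. How reads with several alignments were counted is not given in the sources used here. The deposited signal of a row is its read count after division by the library's size factor, by the authors. In every library used here, 100% of values lay within 0.02 of a whole multiple of 1 step, so whole reads were recovered for count tests. The authors' 8 columns of group means were not used.

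The 16559 rows that averaged 10 or more were tested by limma 3.58.1 in R 4.3.3 on log2(signal + 1), with trended and robust moderation. The fit held all 17 libraries as 8 groups and left 9 residual degrees of freedom. Benjamini-Hochberg adjustment covered every tested row, with a threshold of 0.05. Errors of log2 changes are standard errors. Coding genes have an open reading frame row and a transcript row, and the open reading frame row was used. Fold changes are on the log2(value + 1) scale or, where given as folds, ratios of group means. A list's library deviation is the mean of its members' log2 deviations from the wild-type mean. Depth is the sum of whole reads over open reading frame rows. The procedure was tested on simulated data.

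Members, gene lists and tests were chosen with earlier results of these data known. Named genes were the coding genes with the 20 largest rises and the 20 largest falls, up to 3 per list and direction (the 2 with the smallest p where none passed), up to 5 per RNA class, 10 per direction for each deletion, and the MRX genes and strain markers. The text names a part of these, and some genes the rule chose are not reported here. RNR1, ADH1, FUS1, STE3, CLB2, GCN4, HUG1, DDR48 and the genes of the closing section were chosen after their values were seen. Alternatives were other pseudocounts, filters and scaling factors (TMM, median of ratios), edgeR 4.0.16 and DESeq2 1.42.0 on whole reads, plain moderation, a fit restricted to the compared groups, a block on replicate number, a minimum log2 change of 1 and the omission of each library in turn. Added after seeing the data were wild-type replicates 1 and 2 or 3 and 4 alone, and removal of the length trend. A reference genome was not used, so no sequence is shown.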

Additional observations from a re-analysis of the deposited data

Results flagged for a closer look

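Among 93 results tested, 9 had 1 of the 4 wild-type libraries far from the other 3, and chance flags about 1 in 20 such groups. Wild-type replicate 1 was the library apart in 7 of them. It was the highest for the lists of G1/S genes (mean log2 deviation 1.38), cohesin and condensin genes (0.64) and homologous recombination genes (0.28), for DBP2 (16456 normalized reads) and for RAD5 (1060.3). It was the lowest for IMD2 (6983) and HBT1 (419). The remaining 2 were LOT5, lowest in replicate 4 (404), and HIS3, lowest in replicate 3 (316). DBP2, IMD2, HBT1 and LOT5 were still called without wild-type replicate 1, at limma adjusted p = 0.00693, 0.000205, 0.0123 and 0.0262.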

How the results depend on the processing

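The 81 coding calls against wild type were 59 to 102 under the other pseudocounts, filters, scaling factors and edgeR. They were 31 without trend and robust moderation, 4 in a fit of only the compared groups, 24 with a log2 change of at least 1, 41 with the length trend removed, and 684 by DESeq2. Leaving out 1 library gave 6 to 284, with mre11-H125N replicate 1 (6), replicate 2 (284) and wild-type replicates 2 (169) and 3 (270) moving the count by over 1.5 times. Wild-type replicates 3 and 4 alone gave 123, and replicates 1 and 2 alone 962. The 57 calls in other RNA classes became 8, 37, 244 and 405 in the fit of only the compared groups, with the minimum change, by DESeq2 and with wild-type replicates 1 and 2 alone. Leaving out 1 library gave 9 (without mre11-H125N replicate 1) to 167 (without replicate 2), with 118 without wild-type replicate 3. Against mre11Δ the 914 coding calls became 325 in the fit of only the compared groups, 390 with the minimum change and 162 to 978 without 1 library, with 364 without mre11Δ replicate 1. Against rad50Δ the 808 became 313 with the minimum change and 149 to 624 without 1 library, with 203 and 230 without rad50Δ replicates 1 and 2. With the replicate number as a block, 979 coding genes and 403 other rows were called against wild type. Only wild type has replicates 3 and 4, so this block left wild-type replicates 1 and 2 alone in the comparison. The median log2 change over coding genes was -0.0101 in both fits. Deviations of same-numbered libraries correlated at only 0.040 and 0.053. Deviations of 2 mutant libraries mirror each other, so these values cannot show whether libraries were paired. The cause of the other shifts was not tested, beyond the fewer libraries or genes that some fits hold. Of the medians of gene lists, 821 values under alternatives moved by less than the spread between replicates and 40 moved by more. Depth was above that of wild type in both mutant libraries, and replicates varied by more than counting error.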

Other observations

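Other genes called higher than wild type included factors of endocytosis and of the cortical actin patch. They were grouped after their values were seen and are therefore given without a test of the group. They were picked from the 58 higher genes, 1.04% of all tested coding genes, and the tested genes of this process were not counted. ENT1, an epsin that links cargo to clathrin, had 1245 and 1175 normalized reads in mre11-H125N, 569 and 572 in mre11Δ, 579 and 519 in rad50Δ, and 513 to 808 in wild type (log2 0.83 ± 0.16 against wild type, limma adjusted p = 0.0248). PAN1, an activator of actin assembly at endocytic sites, had 5712 and 6677 in mre11-H125N, 4924 and 4382 in mre11Δ, 4217 and 3928 in rad50Δ, and 3390 to 3999 in wild type (log2 0.71 ± 0.12, adjusted p = 0.0139). BBC1, PRK1, SCD5 and EDE1 of the same process had log2 changes of 0.76, 0.52, 0.57 and 0.49. All 6 genes had both mutant libraries above every wild-type and deletion library. With the length trend removed, ENT1 was still called and the other 5 were not. Of the 21 alternatives, ENT1, PAN1 and BBC1 kept the call in 18, SCD5 in 14, PRK1 in 12 and EDE1 in 11.

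Subunits of chromatin remodelers were also among the higher genes. This group too was picked after the values were seen, and the tested remodeler genes were not counted. INO80, the ATPase of the INO80 complex, had 5784 and 5508 normalized reads in mre11-H125N, 3317 and 3414 in mre11Δ, 3362 and 3122 in rad50Δ, and 3525 to 4233 in wild type (log2 0.56 ± 0.10, limma adjusted p = 0.0159). IES2, a further subunit of that complex, had 595 and 622 in mre11-H125N, 272 and 288 in mre11Δ, 282 and 283 in rad50Δ, and 329 to 461 in wild type (log2 0.71 ± 0.15, adjusted p = 0.0412). ITC1, a subunit of the Isw2 remodeler, had 1635 and 1489 in mre11-H125N, 1198 and 1070.05 in mre11Δ, 1086 and 940.4 in rad50Δ, and 919.6 to 1227 in wild type (log2 0.53 ± 0.12, adjusted p = 0.0489). ACC1, the acetyl-CoA carboxylase that starts fatty acid synthesis, had 83594 and 87768 in mre11-H125N, 55737 and 56455 in mre11Δ, 36529.5 and 36557 in rad50Δ, and 52358 to 59940.5 in wild type (log2 0.61 ± 0.14, adjusted p = 0.0473). IES2 alone of these 4 genes was still called with the length trend removed. Of the 21 alternatives, INO80 kept the call in 18, IES2 in 15, ACC1 in 10 and ITC1 in 8. In each of the 4 the mutant stood above the other 3 genotypes, and ACC1 was lowest in rad50Δ.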
